A study of Rattus norvegicus with 6 samples.

Results

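The 29 genes described here make cholesterol, control its synthesis through the transcription factor SREBP2, or carry, export and store it. They are a list of named genes with known roles, set with no threshold on their values, though earlier results of these data were known when it was drawn up: 7 act in the mevalonate arm, 11 in the sterol arm, 4 in SREBP2 control, 2 in sterol transport and control of uptake, and 5 in LXR signalling, export and esterification. All 29 were among the 16849 genes of the deposited count table, and all 29 were among the 13018 genes with enough counts to test. RNA was sequenced in 3 groups of 2 libraries from RSC96, a rat line of immortalised Schwann cells that is labelled wild type. One group is labelled hypoxia with the piezoelectric material PVDF@PDA, the next hypoxia with the non-piezoelectric material PCL@PDA, and the last Control. The series describes 24 h of exposure to medium from macrophages as its model of hypoxia. No label states if Control had the same medium, and in a comparison with Control the medium, the hypoxia and the material therefore cannot be told apart. The comparison of the materials holds medium and hypoxia in common and differs, by its labels, in the material. Each group has a replicate 1 from batch 1 and a replicate 3 from batch 3.

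Cells make cholesterol from acetyl-CoA through mevalonate and farnesyl pyrophosphate, which squalene synthase and the later sterol enzymes turn into the ring system. When membrane sterol is low, SCAP carries SREBP2 to the Golgi, where it is cut and released to switch on synthesis genes, and when sterol is high INSIG proteins hold SCAP in the endoplasmic reticulum. Oxidised sterols activate the LXR receptors, which switch on the export pumps ABCA1 and ABCG1. Schwann cells depend on this supply because myelin is rich in cholesterol.

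Counts assigned to genes totalled 32760123 to 35389307 per library. A member's count in a library ran from 22 to 14937, and 27 of the 29 members had at least 100 counts in every library. Of 14 Schwann cell markers in the table, Mbp, Ngfr, Gap43 and Cdh19 were below 0.5 CPM, the counts scaled to library size, in every library, and 11 were tested. Erbb3 fell with both materials (adjusted p = 0.000131 with PVDF@PDA and 0.000849 with PCL@PDA) and Sox2 with PVDF@PDA (0.0363). Pmp22, at 41.9 to 56.6 CPM, rose with both (0.0127 and 0.0156), as did Ncam1 (8.1e-06 and 0.00201), and Egr2 rose with PCL@PDA (0.0187). The summed level of the Schwann list was 273.8 to 291.0 CPM in the material libraries and 258.0 and 268.0 CPM in Control. Macrophage markers summed to 7.91 to 9.02 CPM with the materials and 8.28 and 8.23 CPM in Control, with Ptprc, Csf1r, Itgam, Mrc1 and Aif1 below 0.5 CPM in every library. Fibroblast markers summed to 203.5 to 219.9 CPM with the materials against 180.9 and 188.9 CPM in Control, a sum made up mostly of Thy1, which did not pass the test. Of 4 tested, Pdgfra was 1.57 and 1.48 times its Control level with PVDF@PDA and PCL@PDA (adjusted p = 9.86e-06 and 7.37e-05) and Col1a1 1.60 and 1.63 times (4.01e-05 and 1.77e-05), while Dcn was below 0.5 CPM in every library. Endothelial markers summed to 2.45 to 3.42 CPM with the materials and 3.51 and 4.07 CPM in Control, with Cdh5 and Kdr below 0.5 CPM in every library. The part of these marker changes in the results for the members was not tested. In bulk RNA, fewer cells of a type and less RNA per cell cannot be told apart. The labels do not say that libraries came from separate cultures, so p-values measure the spread between these libraries, which may be technical.

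Against Control, the members that fell with the materials included the farnesyl pyrophosphate synthase Fdps, the sterol oxidase Msmo1, Srebf2 itself, its inhibitor Insig1 and the export pumps Abca1 and Abcg1. The desaturase Sc5d rose. The largest changes were those of the pumps: Abcg1 was at 0.546 times its Control level with PVDF@PDA and 0.573 times with PCL@PDA, and Abca1 at 0.617 and 0.563 times. With PVDF@PDA, 8 of 29 members (27.6%) passed an adjusted p of 0.05, beside 15.7% of all genes tested. Of these, 7 were lower (24.1%, beside 8.9% of all genes) and 1 was higher (3.45%, beside 6.79%). With PCL@PDA, 10 of 29 members (34.5%) passed, beside 20.1% of all genes, 7 of them lower (24.1%, beside 11.3%) and 3 higher (10.3%, beside 8.77%). The median log2 difference of the 29 members was -0.01 with PVDF@PDA and 0.02 with PCL@PDA, and that of all genes tested was 0.01 in both comparisons, so the members were spread to both sides of 0 rather than shifted as a group. The 2 comparisons use the same Control libraries and are not independent of each other. For every called member, both libraries of the material lay on one side of both Control libraries. The agreement of batch 1 and batch 3 in direction, 8 of 8 for PVDF@PDA and 10 of 10 for PCL@PDA, follows from this. It is not separate support.

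**Figure D1:**
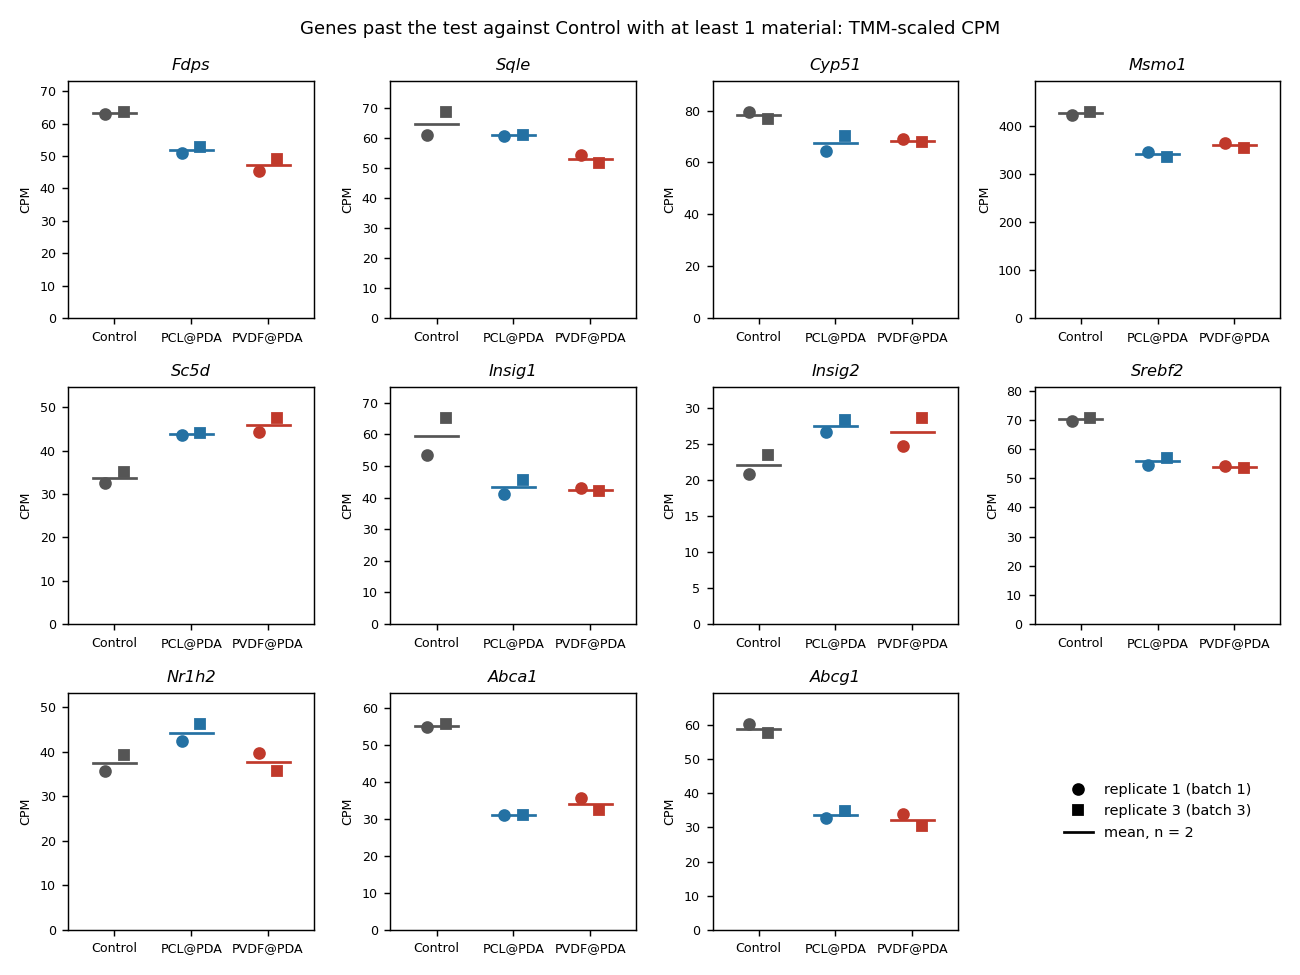
Expression in CPM of the 11 members that passed the test in at least 1 comparison of a material with Control, 1 panel per gene with its own axis starting at 0; each point is a library, marked by batch, and each bar is the mean of the 2 libraries of a group. Abca1 is at 31.1 to 35.8 CPM in the 4 material libraries and at 54.8 and 55.8 CPM in Control, whereas Sc5d is higher with the materials.

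The plot of CPM by library holds the members past the test, and the same order of libraries was counted over all 29. For 9 members all 4 material libraries lay below both Control libraries: Fdps, Fdft1, Cyp51, Msmo1, Insig1, Srebf2, Abca1, Abcg1 and Nr1h3 (31% of members, beside 20.3% of all genes tested). For 5 members all 4 lay above: Acat2, Sc5d, Dhcr7, Insig2 and Stard4 (17.2%, beside 19.3% of all genes). Of these 14 members, Fdft1, Nr1h3, Acat2, Dhcr7 and Stard4 passed the test in neither comparison with Control. Taken by material, the libraries did not overlap with Control for 17 members with PVDF@PDA (58.6%, beside 58.5% of all genes) and 19 with PCL@PDA (65.5%, beside 56.2%).

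The 250 bases before the start are shown for 6 members, though control at the promoter was not tested here. They are the members past the test in each comparison with Control for which RefSeq gave a window, on build GRCr8, and 24 of the 29 members matched a window in all. Abcg1, which also passed in each, had no window among these. Capitals mark every match, on either strand, to the sterol regulatory element core TCACNCC, the CCAAT box, the GC box GGGCGG and the E-box CACGTG, all read 5′ to 3′ along the gene. The windows are Srebf2 at chr7:115543057-115543306 (plus strand), Msmo1 at chr16:29746863-29747112 (plus), Fdps at chr2:176804817-176805066 (minus), Insig1 at chr4:8057770-8058019 (minus), Sc5d at chr8:51538278-51538527 (minus) and Abca1 at chr5:72596474-72596723 (minus).
Srebf2: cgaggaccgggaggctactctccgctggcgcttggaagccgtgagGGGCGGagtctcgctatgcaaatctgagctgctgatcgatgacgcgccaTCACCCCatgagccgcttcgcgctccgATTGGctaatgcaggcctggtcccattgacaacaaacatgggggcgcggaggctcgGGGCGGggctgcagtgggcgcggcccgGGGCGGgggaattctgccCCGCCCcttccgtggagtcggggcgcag
Msmo1: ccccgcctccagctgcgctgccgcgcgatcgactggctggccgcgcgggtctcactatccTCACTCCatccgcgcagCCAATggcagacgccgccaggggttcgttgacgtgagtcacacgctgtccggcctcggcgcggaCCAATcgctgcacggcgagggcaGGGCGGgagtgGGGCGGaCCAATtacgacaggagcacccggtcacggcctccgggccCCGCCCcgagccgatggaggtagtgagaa
Fdps: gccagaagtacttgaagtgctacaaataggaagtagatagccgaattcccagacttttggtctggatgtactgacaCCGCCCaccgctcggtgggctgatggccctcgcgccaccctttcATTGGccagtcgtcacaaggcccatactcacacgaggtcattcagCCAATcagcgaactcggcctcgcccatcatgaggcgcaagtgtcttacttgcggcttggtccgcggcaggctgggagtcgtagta
Insig1: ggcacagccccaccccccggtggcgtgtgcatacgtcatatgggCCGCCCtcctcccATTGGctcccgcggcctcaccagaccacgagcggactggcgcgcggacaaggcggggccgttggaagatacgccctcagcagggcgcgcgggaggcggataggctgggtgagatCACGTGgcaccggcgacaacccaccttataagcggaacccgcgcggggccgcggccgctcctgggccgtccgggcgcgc
Sc5d: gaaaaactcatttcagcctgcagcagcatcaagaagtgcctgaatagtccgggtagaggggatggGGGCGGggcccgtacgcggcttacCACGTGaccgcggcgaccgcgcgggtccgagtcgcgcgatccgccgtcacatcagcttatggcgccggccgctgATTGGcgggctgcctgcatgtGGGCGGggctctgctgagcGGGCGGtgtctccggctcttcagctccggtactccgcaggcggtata
Abca1: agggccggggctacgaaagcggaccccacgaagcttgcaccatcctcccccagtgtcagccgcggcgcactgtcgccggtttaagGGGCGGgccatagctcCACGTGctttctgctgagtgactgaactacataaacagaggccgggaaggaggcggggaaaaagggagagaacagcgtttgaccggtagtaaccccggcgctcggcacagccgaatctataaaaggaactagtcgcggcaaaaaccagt

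The TCACNCC core stood in the windows of Srebf2, from -156 to -150 relative to the start, and Msmo1, from -190 to -184, and not in the windows of Fdps, Insig1, Sc5d or Abca1. It stood in 6 of the 24 member windows (25%: Acat2, Cyp51, Msmo1, Mvd, Nr1h3 and Srebf2), beside 12.2% of all 33469 windows and 13.7% of the 12114 windows of tested genes. The longer form TCACNCCAC, which contains the core, was in 0 member windows and in 0.974% of all windows. CCAAT boxes were in 17 member windows (70.8%, beside 34% of all windows and 35.6% of those of tested genes). GC boxes were in 19 member windows (79.2%, beside 30.5% and 54.8%). The E-box was in 4 member windows (16.7%, beside 5.59% and 7.77%), namely those of Abca1, Insig1, Sc5d and Scap. The LXR direct repeat, AGGTCA read again after 4 bases of any kind, was in 0 member windows and in 0.00299% of all windows. These letters are matches and not measured binding sites, and GC content differed among the 6 windows, from 56.8% at Fdps to 72.8% at Insig1. Only these exact letters within the 250 bases were searched, so a window without a match is not shown to lack such an element. Members with the core were found among those that fell (Srebf2, Msmo1 and, with PCL@PDA, Cyp51) and among those that did not pass (Acat2, Mvd and Nr1h3).

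**Figure D2:**
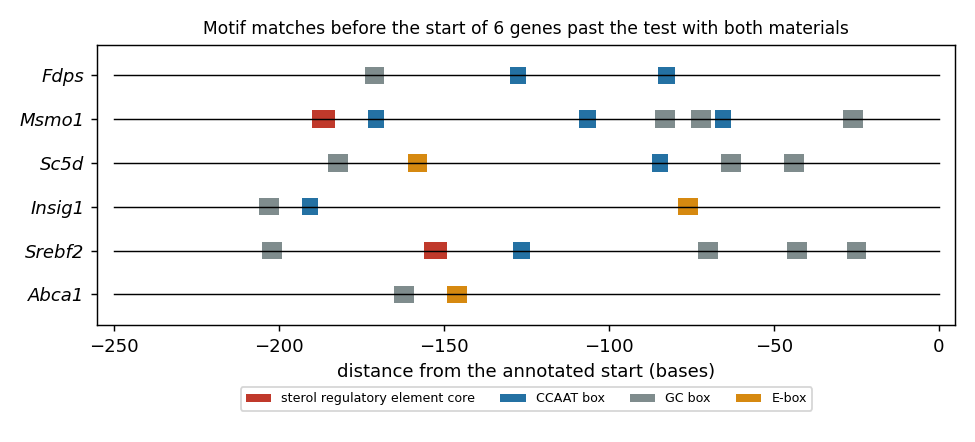
Positions of motif matches in the 250 bases before the start of 6 members (Fdps, Msmo1, Sc5d, Insig1, Srebf2 and Abca1), as distance from the start site in bases; each row is a gene and each mark a match on either strand. The TCACNCC core is marked in Srebf2 and Msmo1, and the E-box in Sc5d, Abca1 and Insig1.

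The map of motif positions shows the E-box in Sc5d, which rose, from -161 to -156, and also in Abca1, from -149 to -144, and Insig1, from -79 to -74, both of which fell.

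In the mevalonate arm, 1 of 7 genes passed the test in each comparison with Control (beside 15.7% of all genes with PVDF@PDA and 20.1% with PCL@PDA), a share near the background. In each it was Fdps. Fdps (gene ID 83791) makes farnesyl pyrophosphate, the branch point between sterols and isoprenoids. Its level was 45.5 and 49.1 CPM with PVDF@PDA, 50.9 and 52.7 CPM with PCL@PDA, and 62.9 and 63.6 CPM in Control. All 4 material libraries were below both Control libraries, and the groups did not overlap. Fdps fell by 0.42 on the log2 scale with PVDF@PDA (SE 0.08, adjusted p = 6.1e-05) and by 0.29 with PCL@PDA (SE 0.08, adjusted p = 0.00497). The steps before it did not pass the test. Hmgcs1, which makes the precursor HMG-CoA, differed from Control by -0.01 (95% interval -0.17 to 0.15) with PVDF@PDA and -0.09 (-0.25 to 0.07) with PCL@PDA on the log2 scale. Acat2, the thiolase of the first step, was at 26.7 and 26.2 CPM with PVDF@PDA, 28.2 and 29.7 CPM with PCL@PDA, and 24.5 and 25.4 CPM in Control (adjusted p = 0.645 and 0.135). Mvd, the decarboxylase that makes isopentenyl pyrophosphate, was at 5.34 and 3.91 CPM with PVDF@PDA, 5.84 and 7.15 CPM with PCL@PDA, and 4.68 and 4.33 CPM in Control. Its PCL@PDA libraries were the highest 2 of the 6, with a log2 difference from Control of 0.53 (SE 0.22, adjusted p = 0.0795, or 0.0472 without PCL@PDA replicate 1). The kinases Mvk and Pmvk had log2 differences from Control of 0.13 to 0.25 over both materials, and the isomerase Idi1 of 0.06 and -0.05, none past the test. Idi1 overlaps Wdr37 in the annotation, and the strand of the counting is not given in the sources used here, so its value is uncertain.

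In the sterol arm, 1 gene rose and 2 fell of 11 with each material. Over all genes, 6.79% rose and 8.9% fell with PVDF@PDA, and 8.77% rose and 11.3% fell with PCL@PDA, so the count that rose is near the background. Msmo1 (140910), which removes the methyl groups at an early step after ring closure, was by far the most abundant of the 11. Its level was 363.4 and 354.2 CPM with PVDF@PDA, 345.3 and 335.2 CPM with PCL@PDA, and 423.0 and 428.5 CPM in Control. The pairs were tight and the Control libraries stood above all 4 others. Msmo1 fell by 0.25 on the log2 scale with PVDF@PDA (SE 0.05, adjusted p = 0.000341) and by 0.32 with PCL@PDA (SE 0.05, adjusted p = 3.08e-06). Sc5d (114100), the desaturase that acts near the end of the arm, went the other way. Its level was 44.3 and 47.6 CPM with PVDF@PDA, 43.5 and 44.0 CPM with PCL@PDA, and 32.5 and 35.0 CPM in Control. Both materials lay above Control with no overlap. Sc5d rose by 0.45 on the log2 scale with PVDF@PDA (SE 0.09, adjusted p = 0.000147) and by 0.37 with PCL@PDA (SE 0.09, adjusted p = 0.00115, or 0.0512 without Control replicate 1).

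Sqle and Cyp51 each passed with 1 material. Sqle (29230), the squalene epoxidase that starts the oxygen-dependent steps, was at 54.3 and 51.7 CPM with PVDF@PDA, 60.8 and 61.1 CPM with PCL@PDA, and 61.0 and 68.7 CPM in Control. The PVDF@PDA libraries were the lowest 2 of the 6, and the PCL@PDA libraries overlapped the range of Control. Sqle fell by 0.29 on the log2 scale with PVDF@PDA (SE 0.08, adjusted p = 0.00488) and differed by -0.09 with PCL@PDA (SE 0.08, adjusted p = 0.461). The call was lost without PVDF@PDA replicate 3 (adjusted p = 0.0960), without Control replicate 3 (0.198) and with limma on log2(FPKM + 1) (0.0737). Cyp51 (25427), the sterol demethylase, was at 69.0 and 67.8 CPM with PVDF@PDA, 64.4 and 70.3 CPM with PCL@PDA, and 79.5 and 76.8 CPM in Control. All 4 material libraries were below Control. Cyp51 fell by 0.22 on the log2 scale with PCL@PDA (SE 0.07, adjusted p = 0.0242) and differed by -0.19 with PVDF@PDA (SE 0.07, adjusted p = 0.0559, or 0.0320 with the replicate block). The PCL@PDA call held in 9 of the 16 alternatives. It was lost without PCL@PDA replicate 1 (0.133) and without Control replicate 1 (0.201) or 3 (0.0646), under DESeq2 with the replicate block (0.0570), with library totals alone (0.0824) and under limma with either pseudocount (0.132 and 0.129).

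The other 7 genes of the sterol arm passed in neither comparison. Fdft1, the squalene synthase that commits farnesyl pyrophosphate to sterols, had all 4 material libraries (44.0 to 47.6 CPM) below Control (50.8 and 51.8 CPM), with log2 differences of -0.16 (adjusted p = 0.181) and -0.17 (adjusted p = 0.149). Dhcr7, the reductase of the last step to cholesterol in its branch, was at 4.49 to 4.88 CPM with the materials and 3.66 and 3.99 CPM in Control, with log2 differences of 0.29 (adjusted p = 0.437) and 0.33 (adjusted p = 0.350). The cyclase Lss, the dehydrogenase Nsdhl, the ketoreductase Hsd17b7 and the isomerase Ebp had log2 differences between -0.18 and 0.18. Tm7sf2, a sterol reductase, was near 1 CPM, and its interval with PVDF@PDA ran from -0.66 to 1.42, so a change of the size seen in Sc5d was not detectable at its depth.

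**Figure D3:**
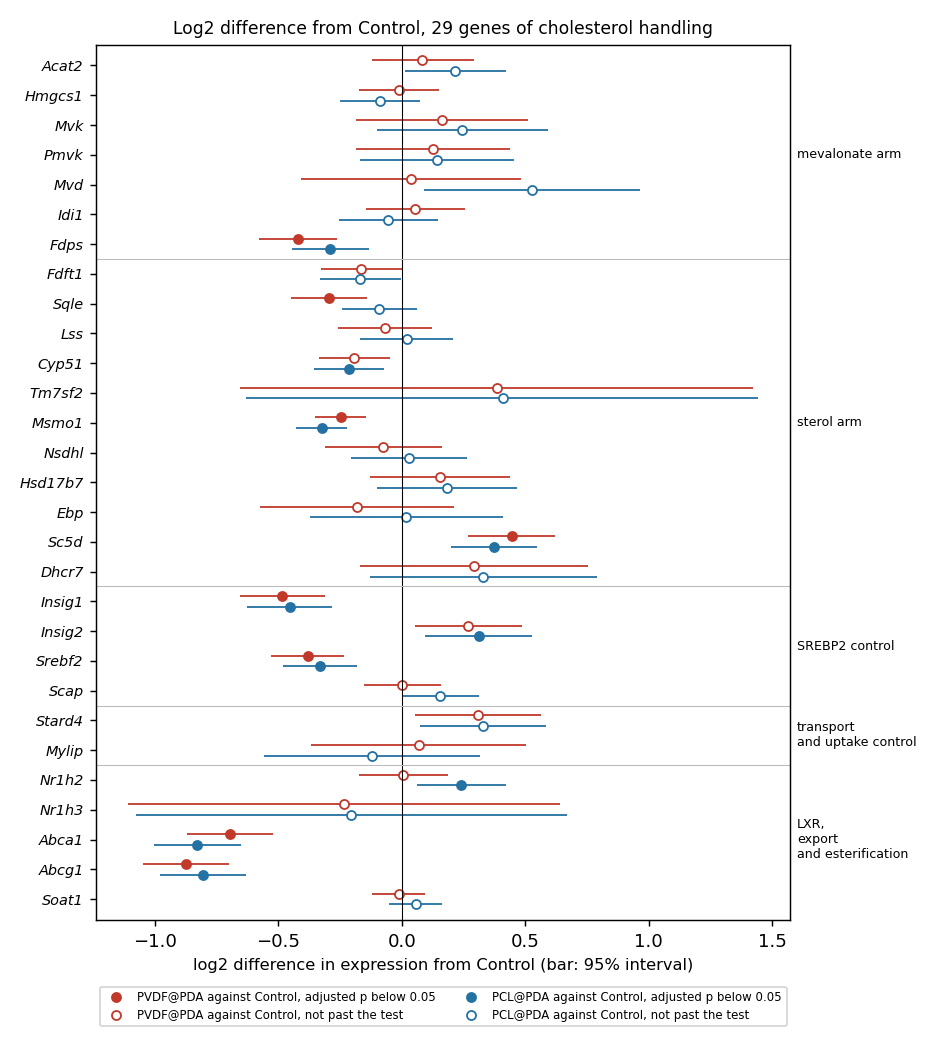
Log2 difference from Control of each of the 29 members with PVDF@PDA and with PCL@PDA, grouped by role; points are edgeR estimates, lines 95% intervals, and filled points passed an adjusted p of 0.05. Abca1 and Abcg1 lie farthest below 0, and intervals are widest for Tm7sf2 and Nr1h3, the members of lowest level.

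The plot of differences from Control sets each arm beside its controllers, of which 2 of 4 fell with each material (beside 8.9% and 11.3% of all genes). Srebf2 (300095), the gene of SREBP2, was at 54.4 and 53.5 CPM with PVDF@PDA, 54.6 and 57.1 CPM with PCL@PDA, and 69.7 and 70.7 CPM in Control. The material libraries lay together and well below Control. Srebf2 fell by 0.38 on the log2 scale with PVDF@PDA (SE 0.07, adjusted p = 0.000141) and by 0.33 with PCL@PDA (SE 0.07, adjusted p = 0.000773). Insig1 (64194), the sterol-sensing retention protein that is itself a target of SREBP2, was at 42.9 and 42.0 CPM with PVDF@PDA, 41.2 and 45.5 CPM with PCL@PDA, and 53.5 and 65.2 CPM in Control. The Control libraries differed from each other by more than the material libraries did, yet both were above all 4. Insig1 fell by 0.48 on the log2 scale with PVDF@PDA (SE 0.09, adjusted p = 3.92e-05) and by 0.45 with PCL@PDA (SE 0.09, adjusted p = 8.44e-05). With limma on log2(FPKM + 1) these adjusted p were 0.0567 and 0.0582.

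Insig2 (288985), the second retention protein, which is not under SREBP2 in the same way, was higher where Insig1 was lower. Its level was 24.7 and 28.6 CPM with PVDF@PDA, 26.7 and 28.3 CPM with PCL@PDA, and 20.8 and 23.5 CPM in Control. All 4 material libraries were above Control. Insig2 rose by 0.31 on the log2 scale with PCL@PDA (SE 0.11, adjusted p = 0.0321) and differed by 0.27 with PVDF@PDA (SE 0.11, adjusted p = 0.0829). The PCL@PDA call held in 10 of the 16 alternatives. It was lost without PCL@PDA replicate 3 and without Control replicate 1. It was also lost under DESeq2 (0.0691), under DESeq2 with the replicate block and under limma with either pseudocount. The PVDF@PDA difference passed in 3 of the 16, those without either PCL@PDA library and that with only the 4 libraries compared. Scap (301024), the escort of SREBP2, was at 54.5 and 55.2 CPM with PVDF@PDA and 54.0 and 55.5 CPM in Control, a log2 difference of 0.00 (-0.15 to 0.16). With PCL@PDA it was at 57.7 and 64.3 CPM, a log2 difference of 0.16 (adjusted p = 0.158, or 0.0289 without PCL@PDA replicate 1).

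Neither of the 2 genes of transport and uptake control passed the test. Stard4 (291699), a soluble carrier of sterol between membranes and a known SREBP2 target, was at 17.4 and 17.6 CPM with PVDF@PDA, 17.0 and 18.5 CPM with PCL@PDA, and 14.1 and 14.2 CPM in Control. All 4 material libraries were above Control, with log2 differences of 0.31 (adjusted p = 0.0934) and 0.33 (adjusted p = 0.0591). The replicate block gave 0.0457 for PCL@PDA, scaling by library totals alone gave 0.0345, and leaving out PCL@PDA replicate 1 gave 0.0443. Mylip, an LXR target that marks lipoprotein receptors for degradation, had log2 differences of 0.07 and -0.12, and its groups overlapped.

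Among the 5 genes of LXR signalling, export and esterification, the 2 export pumps fell with both materials. Of all genes, 8.9% fell with PVDF@PDA and 11.3% with PCL@PDA. With PCL@PDA 1 of the 5, Nr1h2, rose (beside 8.77% of all genes), and with PVDF@PDA 0 rose (beside 6.79%). Abca1 (313210) passes cholesterol to lipid-poor apolipoprotein. Its level was 35.8 and 32.4 CPM with PVDF@PDA, 31.2 and 31.1 CPM with PCL@PDA, and 54.8 and 55.8 CPM in Control. The Control pair stood far above the others, and Abca1 fell by 0.70 on the log2 scale with PVDF@PDA (SE 0.09, adjusted p = 1.96e-08) and by 0.83 with PCL@PDA (SE 0.09, adjusted p = 1.48e-10). Abcg1 (85264), which passes cholesterol to mature lipoprotein particles, was at 33.8 and 30.5 CPM with PVDF@PDA, 32.8 and 34.7 CPM with PCL@PDA, and 60.3 and 57.5 CPM in Control. It fell by 0.87 with PVDF@PDA (SE 0.09, adjusted p = 3.48e-11) and by 0.80 with PCL@PDA (SE 0.09, adjusted p = 2.57e-10) on the log2 scale. These were the smallest p-values among the members in both comparisons, at ranks 28 and 56 of the 13018 genes for Abcg1 and 76 and 50 for Abca1.

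The receptors themselves did not fall past the test. Nr1h2 (58851), LXR beta, was at 39.6 and 35.7 CPM with PVDF@PDA, 42.3 and 46.3 CPM with PCL@PDA, and 35.6 and 39.3 CPM in Control. It rose by 0.24 on the log2 scale with PCL@PDA (SE 0.09, adjusted p = 0.0479), a call that held in only 5 of the 16 alternative analyses, with adjusted p up to 0.401. With PVDF@PDA its difference was 0.01 (adjusted p = 0.974). Nr1h3, LXR alpha, was low, at 1.23 to 1.37 CPM with the materials and 1.47 and 1.58 CPM in Control. Its log2 differences of -0.23 (-1.11 to 0.64) and -0.20 (-1.08 to 0.67) were not distinguishable from 0 at this depth, and it overlaps Acp2 in the annotation. Soat1, which esterifies cholesterol for storage, was at 262.8 to 292.7 CPM with the materials and 274.3 and 270.5 CPM in Control, with log2 differences of -0.01 (-0.12 to 0.10) and 0.06 (-0.05 to 0.17).

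Levels can be compared between genes only per length, for which the authors' deposited FPKM values were used. In Control, Msmo1 had the highest FPKM of the members, 244 ± 3.29 (SD, n = 2), at the 98.1 percentile of the tested genes. Soat1 followed at 153 ± 0.894 FPKM and Fdps at 48.9 ± 0.563 FPKM. Sqle (28.5 ± 2.53 FPKM) and Cyp51 (25.4 ± 0.522 FPKM) came next and were separated by little more than the spread of Sqle. Abcg1 was at 16.4 FPKM in Control and 9.18 and 9.68 FPKM with PVDF@PDA and PCL@PDA, which placed it above Abca1 (5.18, 3.28 and 3.01 FPKM) in every group. The 2 LXR genes differed widely, Nr1h2 at 17.3 and Nr1h3 at 0.622 FPKM. Insig1 (15.6 FPKM in Control) exceeded Insig2 (6.84 FPKM), and this order held with PVDF@PDA (11.4 against 8.45 FPKM) and PCL@PDA (11.7 against 8.75 FPKM). The lowest members were Dhcr7, Mylip, Nr1h3 and Tm7sf2, from 1.43 down to 0.572 FPKM.

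**Figure D4:**
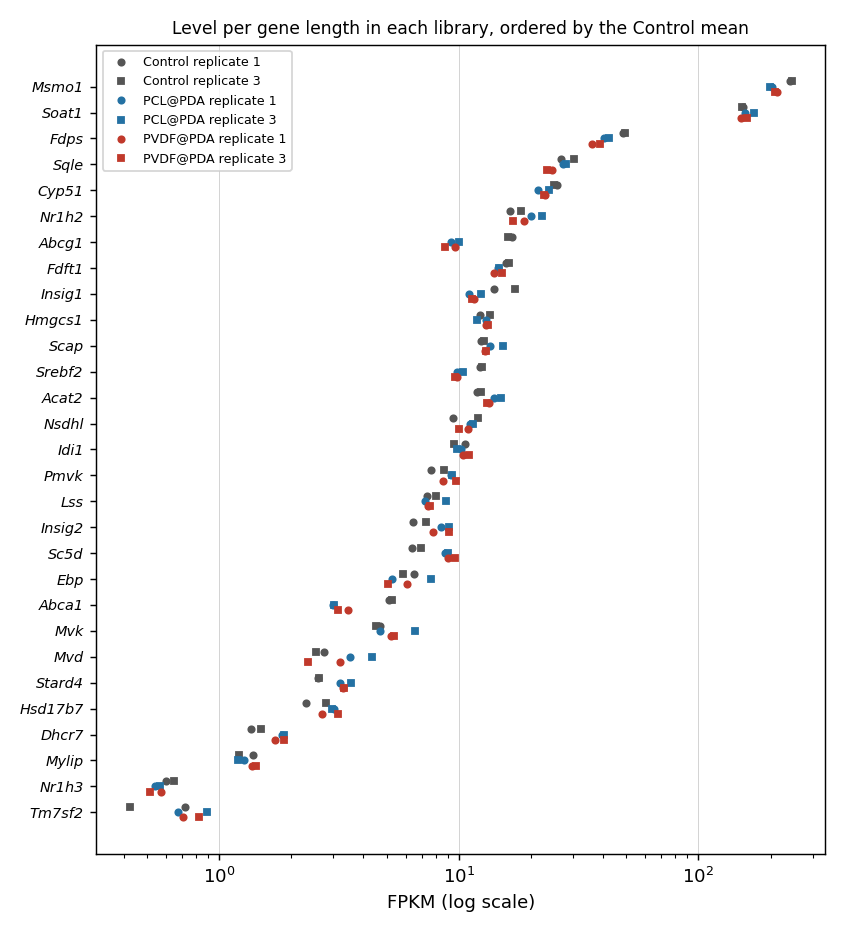
Deposited FPKM of the 29 members on a log axis, ordered by their mean in Control; each point is a library, coloured by group. Members span from 0.572 FPKM (Tm7sf2) to 244 FPKM (Msmo1) in Control, and the order of the highest members is alike in the 3 groups.

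The plot of FPKM levels also shows that Msmo1, Soat1, Fdps, Sqle and Cyp51 were the highest members, in that order, in each of the 3 groups. Summed over the 11 genes of the sterol arm, the level was 656.7 and 650.6 CPM with PVDF@PDA, 641.9 and 647.8 CPM with PCL@PDA, and 724.8 and 748.4 CPM in Control. Msmo1 made up most of this sum. The 7 genes of the mevalonate arm summed to 178.3 and 184.2 CPM with PVDF@PDA, 185.4 and 186.4 CPM with PCL@PDA, and 191.2 and 194.8 CPM in Control.

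The piezoelectric and non-piezoelectric materials were then compared with each other. Of the 29 members, 0 passed the adjusted p of 0.05 by edgeR, beside 0.0615% of all genes tested (0.0538% higher and 0.00768% lower with PVDF@PDA), and DESeq2 called 0 as well. At an unadjusted p under 0.05 there were 3 members, Mvd, Sqle and Nr1h2 (10.3%, beside 8.49% of all genes). All 3 were lower with PVDF@PDA. Sqle had the smallest adjusted p, 0.435, with a log2 difference of -0.20 (95% interval -0.36 to -0.05). Nr1h2 differed by -0.23 (-0.41 to -0.05, adjusted p = 0.439). Its difference was -0.30, with an adjusted p of 0.0483, when PCL@PDA replicate 1 was left out. Mvd differed by -0.49 (-0.93 to -0.05, adjusted p = 0.530), with -0.13 in batch 1 and -0.87 in batch 3.

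For the members that changed most against Control, the materials differed by little. The log2 difference of PVDF@PDA from PCL@PDA was 0.13 for Abca1 (-0.05 to 0.31), -0.07 for Abcg1 (-0.25 to 0.11), -0.05 for Srebf2 (-0.20 to 0.10) and -0.03 for Insig1 (-0.20 to 0.15). For Msmo1 it was 0.08 (-0.03 to 0.18), for Sc5d 0.07 (-0.10 to 0.24) and for Fdps -0.13 (-0.29 to 0.03). For 24 of the 29 members (82.8%, beside 69.1% of all genes) the 95% interval lay within 0.5 of 0 on the log2 scale. A difference was negative for 21 of the 29 members (72.4%, beside 48.6% of all genes), with a median of -0.04 beside 0.00 for all genes. The libraries of the materials did not overlap for 13 members (44.8%, beside 38% of all genes). Of those, 5 were higher with PVDF@PDA (Idi1, Msmo1, Sc5d, Mylip and Abca1) and 8 lower (Acat2, Mvd, Fdps, Sqle, Nsdhl, Srebf2, Scap and Nr1h2).

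**Figure D5:**
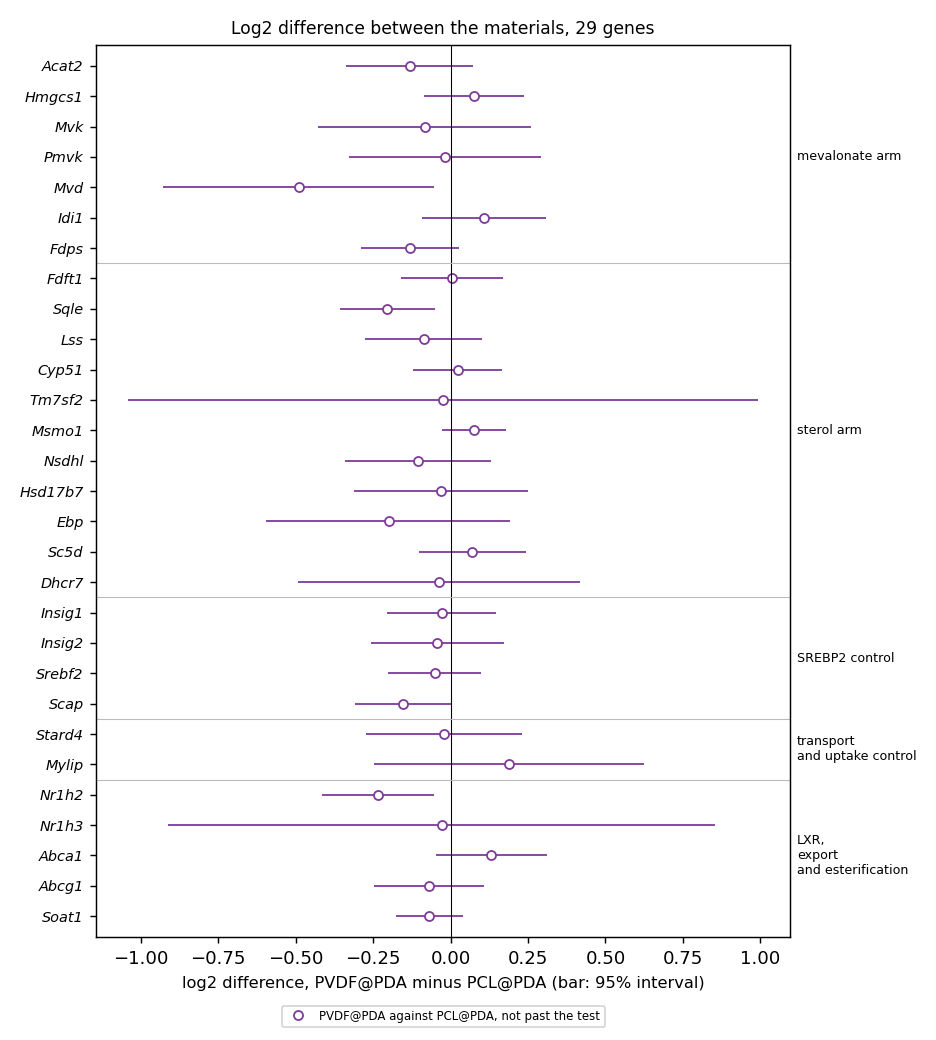
Log2 difference of PVDF@PDA from PCL@PDA for each of the 29 members, grouped by role; points are edgeR estimates and lines 95% intervals, and no member passed an adjusted p of 0.05. The intervals of Mvd, Sqle and Nr1h2 lie below 0, before adjustment.

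In the plot of differences between the materials, all other intervals include 0. The widest are those of Tm7sf2, from -1.04 to 0.99, and Nr1h3, from -0.91 to 0.85, which leave room for changes as large as those of the pumps against Control.

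A further list held Srebf1 and genes linked to SREBP processing or sterol-regulated degradation. Of its 12 genes, 1 rose and 3 fell with PVDF@PDA, and 1 rose and 2 fell with PCL@PDA, with Srebf1 lower in both. Beside these stand 6.79% higher and 8.9% lower of all genes with PVDF@PDA, and 8.77% and 11.3% with PCL@PDA, and 1 of 12 higher is near that background. Srebf1 (78968), the sister gene of Srebf2 and an LXR target, was at 21.0 and 19.8 CPM with PVDF@PDA, 20.1 and 24.7 CPM with PCL@PDA, and 32.5 and 33.6 CPM in Control. It fell by 0.69 on the log2 scale with PVDF@PDA (SE 0.11, adjusted p = 3.19e-06) and by 0.56 with PCL@PDA (SE 0.11, adjusted p = 8.94e-05), with no overlap. Mbtps1, the protease that makes the first cut in SREBPs, was at 129.4 and 122.0 CPM with PVDF@PDA, 134.0 and 133.7 CPM with PCL@PDA, and 150.4 and 157.2 CPM in Control. It fell by 0.29 (adjusted p = 0.000266) and by 0.20 (adjusted p = 0.0114). The PCL@PDA call held in 13 of the 16 alternatives. It was lost without Control replicate 3 and under limma with either pseudocount. Rnf145, a sterol-responsive ubiquitin ligase and LXR target, rose from 53.4 and 51.2 CPM in Control to 66.6 and 72.7 CPM with PVDF@PDA and 67.1 and 68.1 CPM with PCL@PDA (adjusted p = 3.73e-05 and 0.000176). Of the LXR targets named so far, Abca1, Abcg1 and Srebf1 fell, Rnf145 rose and Mylip did not pass. Aup1, a lipid droplet protein that takes part in sterol-regulated degradation, fell by 0.22 with PVDF@PDA (adjusted p = 0.0326), a call held in 8 of 16 alternatives.

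Of 15 tested genes of uptake and lysosomal release, 2 rose with PVDF@PDA, 4 rose with PCL@PDA and 0 fell with either at the adjusted threshold of edgeR. Among all genes, 6.79% and 8.77% rose and 8.9% and 11.3% fell with PVDF@PDA and PCL@PDA. Nceh1, a hydrolase of cholesteryl esters, was at 190.5 and 195.5 CPM with PVDF@PDA, 188.0 and 193.1 CPM with PCL@PDA, and 150.6 and 151.6 CPM in Control. It rose by 0.35 on the log2 scale with PVDF@PDA (adjusted p = 4.95e-06) and by 0.34 with PCL@PDA (adjusted p = 1.05e-05), and its material libraries were all above Control. Lrp1, a large endocytic lipoprotein receptor, rose by 0.22 with PCL@PDA (adjusted p = 0.00126) and differed by 0.14 with PVDF@PDA (adjusted p = 0.0508). The replicate block took the latter to 0.00590, and it passed in 7 of the 16 alternatives. Npc1, which moves cholesterol out of lysosomes, rose by 0.19 (adjusted p = 0.0353) and 0.17 (adjusted p = 0.0494), calls that held in 9 and 4 of 16 alternatives, with adjusted p up to 0.545 and 0.408.

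Of 15 tested genes of the isoprenoid and sterol side branches, 0 rose, while 1 fell with PVDF@PDA and 2 with PCL@PDA. These counts are near the 8.9% and 11.3% of all genes that fell (6.79% and 8.77% rose). Pggt1b, a subunit of the enzyme that attaches geranylgeranyl groups to proteins, was at 34.3 and 30.3 CPM with PVDF@PDA, 33.5 and 32.7 CPM with PCL@PDA, and 43.2 and 40.1 CPM in Control. It fell by 0.36 on the log2 scale with PVDF@PDA (adjusted p = 0.00376) and by 0.33 with PCL@PDA (adjusted p = 0.00724). These calls held in 12 and 13 of the 16 alternatives. Both were lost without Control replicate 1 and under limma with either pseudocount, and the former also without PVDF@PDA replicate 3. Faxdc2, a hydroxylase family relative of Msmo1 and Sc5d, was at 4.74 and 5.55 CPM with PVDF@PDA, 2.52 and 2.63 CPM with PCL@PDA, and 5.04 and 4.42 CPM in Control. The PCL@PDA libraries stood below the other 4. It fell by 0.88 on the log2 scale with PCL@PDA against Control (SE 0.25, adjusted p = 0.00694, or 0.0837 without Control replicate 1). Between the materials its log2 difference was 1.00 (0.51 to 1.49, adjusted p = 0.124), which the replicate block took to an adjusted p of 0.0246.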

How the data were processed

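RNA from 6 libraries of RSC96 cells was analysed from whole-number counts per gene, which the authors deposited in one table, and from FPKM values that the authors deposited as a table for each library. Per the submitters' processing notes DESeq2 1.4.5 and the build mRatBN7.2 were used, with no role stated, while the sources used here give no aligner, counter, annotation or strand setting. For 15690 of 15690 genes checked, the deposited FPKM values were the counts per library total and a single gene length, within a relative tolerance of 1e-05. Groups follow the sample titles, because the free text for PCL@PDA mentions PVDF@PDA instead.

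Counts were fitted with edgeR 4.0.16 in R 4.3.3: TMM scaling, filterByExpr, a robust quasi-likelihood test with 3 group means over all 6 libraries, and Benjamini-Hochberg adjustment over the 13018 genes left. Standard errors are the log2 difference divided by the root of F, CPM are scaled by TMM, and 3 counts correspond to 0.0848 to 0.0916 CPM. The biological coefficient of variation was 6.47%. With 3 residual degrees of freedom and a median of 50.3 prior ones, the spread of most genes was drawn mainly from all genes. Standard errors and intervals are thus not the replicate spread of a single gene. The code was tested on simulated data. There were 16 alternatives, among them DESeq2 1.42.0, limma 3.58.1 on log2(FPKM + 1) or log2(FPKM + 0.1), other scalings and each library left out. The labels give replicate numbers 1 and 3 as batches, which pair the libraries. Deviations of same-numbered libraries correlated at r = -0.0207, 0.0434 and 0.13 across genes, and a fit with the number as a block is an alternative.

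The members and the other lists were chosen with earlier results of these data known. All members are described, with values in every library for those past the test against Control. From each further list the 4 genes with the smallest p in either comparison with Control were eligible to be named, and of these Lcat and Ggps1 passed in neither comparison. Single values of some listed genes are not reported here, and other genes of the pathway are not analysed here. Promoter windows came from RefSeq on GRCr8, read as the 250 bases before each start, both strands searched.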

Additional observations from a re-analysis of the deposited data

How the results depend on the processing

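Over the 16 alternatives no member changed sign where it was called, and 6 of the 8 calls with PVDF@PDA (Fdps, Msmo1, Sc5d, Srebf2, Abca1 and Abcg1) and 5 of the 10 with PCL@PDA (Fdps, Msmo1, Srebf2, Abca1 and Abcg1) held in every one. Members higher with PVDF@PDA numbered 2 in place of 1 when only the 4 libraries compared were fitted, and 1 to 2 with a library left out. Members higher with PCL@PDA numbered 3, and 1 under DESeq2, under DESeq2 with the replicate block and under limma with either pseudocount, and 0 to 6 with a library left out: 6 without PCL@PDA replicate 1, 1 without PCL@PDA replicate 3 and 0 without Control replicate 1. Members lower with PVDF@PDA than with PCL@PDA numbered 0 to 1 with a library left out. Lower members numbered 6 to 8 with PVDF@PDA and 6 to 7 with PCL@PDA when a library was left out. With the replicate block, which pairs the libraries by batch, 1 member was higher and 8 lower with PVDF@PDA, 4 higher and 7 lower with PCL@PDA, and 0 differed between the materials. The cause of these moves was not tested.

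Counts over all genes moved more. Genes called with PVDF@PDA numbered 2042, 926 and 997 under limma with pseudocounts of 1 and 0.1, and 1030 to 2869 with a library left out. With PCL@PDA they numbered 2616, then 1366 and 1447, and 1346 to 3173. Between the materials they numbered 8, 59 with the replicate block, 30 under DESeq2 with it, 17 without the filter, 5 under DESeq2 and with library totals, 0 under limma, and 0 to 827 with a library left out, 827 being without PCL@PDA replicate 1. Without TMM, on library totals, the split with PVDF@PDA went from 884 higher and 1158 lower to 1164 and 879, and with PCL@PDA from 1142 and 1474 to 1481 and 1070. The members were then 1 higher and 7 lower, and 4 and 6. The number of libraries, 2 per group, and low counts limit what can be seen in Tm7sf2 and Nr1h3, the members with the fewest counts.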
